A study of Mus musculus with 17 samples.

Results

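Expression of 10 genes of the MYC and MAX network was described in mouse macrophages: Myc, Max, Mxd1, Mxd3, Mxd4, Mxi1, Mnt, Mlx, Mga and Braf. They were the rows of the deposited expression table that carry these symbols, 10 of 24453 gene models, and every one of them had a single row and reads in all 13 libraries. Braf, a protein kinase of the pathway from RAS to ERK, is not a partner of MAX and was included because 1 of the cell types studied was transformed with mutant BRAF together with Myc.

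MYC is a basic helix-loop-helix leucine zipper protein that binds DNA as a dimer with MAX, with preference for the E-box CACGTG, and drives genes of ribosome production, translation and growth. MXD1, MXD3, MXD4, MXI1 and MNT compete for MAX and recruit SIN3 and histone deacetylases to the same kind of site, MGA pairs with MAX in a repressive complex, and MLX pairs with MNT, MXD proteins and the glucose-sensing MONDO proteins. In macrophages, inflammatory and growth signals induce Myc as an early response gene, while MXD genes are known for their expression in cells that leave the cell cycle.

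PolyA RNA-seq libraries came from 2 kinds of male C57Bl/6EiJ or Balb/cJ macrophage. Immortalized bone marrow-derived macrophages (iBMDMs) are a C57Bl/6EiJ line at passage 3 to 8 that was made with a retrovirus holding myc and mutant Braf and that also carried Cas9; guides against Atf3 (Atf3KO), Jun (JunKO) or Jund (JunDKO) came on a lentivirus with a fluorescent marker by which cells were sorted, and a scramble control (Scramble) served for all 3. Each iBMDM group held 2 vehicle-treated libraries, and all 8 libraries share the line and both oncogenes. The titles of the Scramble libraries name zsGreen, a fluorescent protein, in the place where those of the knockouts name vehicle, while their other labels give vehicle and a scramble control; whether they carried the same virus as the knockouts is not given in the sources used here. Thioglycollate-elicited macrophages (TGEMs) are primary cells flushed from the peritoneum of mice aged 8 weeks, and were given vehicle (Veh) or the TLR4 agonist Kdo2 lipid A (KLA) for 1 h. From C57Bl/6EiJ mice there was 1 library of each and from Balb/cJ mice 1 vehicle library and 2 with KLA. Whether the edited lines are clones or pools, the promoter of the oncogenes and the species of their sequences are not given in the sources used here, so reads of the viral and of the endogenous gene could not be told apart.

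Values were RPKM, reads scaled to exon length and library depth, so they may be compared between genes. Library depth was 1553296 to 18444434 reads. Reads fell on 10425 and 10631 gene models in the 2 Atf3KO libraries, against 11884 to 12533 in the other 6 of the line. Depth was 4397164 and 7236839 reads in Atf3KO, 1929988 and 1711541 in Scramble and 1553296 to 18444434 over those 6. The label dates of the 2 Atf3KO libraries differ, and only the first shares the date of the Scramble libraries. Exonic RPKM does not check an edit: in the libraries labelled Atf3KO the level of Atf3 was 154 and 169 RPKM, and in Scramble 80.7 and 77.4. Jun was 26.2 and 20.5 RPKM in JunKO against 17.6 and 18.5, also higher under the knockout label, and Jund 6.94 and 6.07 in JunDKO against 9.19 and 8.33. The summed level of 9 macrophage markers was 17580 to 33799 RPKM in iBMDMs and 9525 to 12166 in TGEMs. Lysozyme (Lyz2) made most of it, at 14815 to 30398 against 5321 to 7145 RPKM, while Cd68 went the other way, at 353 to 705 against 1404 to 4050; between Scramble and vehicle TGEMs 5 of the 9 markers were higher and 3 lower. The TGEM libraries also held summed levels of 41.3 to 84.3 RPKM for 8 mesothelial and fibroblast markers and 11.9 to 27.6 for 6 B cell markers, against at most 0.426 and 0.488 in iBMDMs. Although labelled male, the TGEM libraries held 863 to 8676 reads of Xist, and the iBMDM libraries 0 to 3.

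For 9 of the members, all but Myc, the RefSeq promoters used here (build GRCm38.p6) held an entry, 11 in all, of which the 250 bases before each start were searched on both strands. The E-box CACGTG, the site that MYC, MXD and MNT dimers with MAX share, was found in the promoters of 3 of the 9, Mlx, Mnt and Mxd4, and in 6.02% of all 32851 promoters of the same length. The AP-1 motif TGANTCA, searched because ATF3, JUN and JUND are AP-1 proteins, was found in 0 of the 9 and in 6.75% of all promoters. The related site TGACGTCA occurred at 2 positions in the promoter of Braf alone and in 1.55% of all promoters. The promoters of Mxd4, Mnt and Mlx are shown with the E-box in capitals. In Mxd4 it lies 219 to 214 bases before the start (minus strand, chr5:34187711-34187960), in Mnt 123 to 118 bases (plus strand, chr11:74830674-74830923) and in Mlx 40 to 35 bases (plus strand, chr11:101087040-101087289).
Mxd4: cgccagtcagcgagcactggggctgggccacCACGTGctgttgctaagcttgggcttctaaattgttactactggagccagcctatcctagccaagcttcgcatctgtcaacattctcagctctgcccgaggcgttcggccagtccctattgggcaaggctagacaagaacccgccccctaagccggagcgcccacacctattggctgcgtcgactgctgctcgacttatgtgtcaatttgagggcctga
Mnt: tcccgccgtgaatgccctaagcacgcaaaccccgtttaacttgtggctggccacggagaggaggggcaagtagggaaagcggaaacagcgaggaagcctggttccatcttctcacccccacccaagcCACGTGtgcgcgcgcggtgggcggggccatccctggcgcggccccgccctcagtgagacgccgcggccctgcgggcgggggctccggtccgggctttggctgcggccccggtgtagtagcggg
Mlx: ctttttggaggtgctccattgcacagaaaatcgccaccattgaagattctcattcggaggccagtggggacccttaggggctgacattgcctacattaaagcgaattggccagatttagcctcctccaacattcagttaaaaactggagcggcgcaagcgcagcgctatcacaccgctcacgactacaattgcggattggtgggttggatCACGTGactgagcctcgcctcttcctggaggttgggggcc
A match is a string of letters, and no binding was measured here.

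The promoter of Braf (minus strand, chr6:39725464-39725713) is shown for its pair of TGACGTCA strings, in capitals, 99 to 92 and 81 to 74 bases before the start.
Braf: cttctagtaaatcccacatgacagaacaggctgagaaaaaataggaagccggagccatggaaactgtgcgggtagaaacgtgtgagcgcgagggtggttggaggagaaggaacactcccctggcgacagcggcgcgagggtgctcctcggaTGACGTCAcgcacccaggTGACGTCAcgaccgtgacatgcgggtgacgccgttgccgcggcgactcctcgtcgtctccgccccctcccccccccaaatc

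Myc (chromosome 15, 61985341 to 61990361, plus strand, GRCm38) was lower in both vehicle TGEM libraries than in every other library. It measured 49.0 and 22.7 RPKM in Scramble, 42.9 and 67.4 in Atf3KO, 41.0 and 25.1 under the label JunKO and 31.5 and 20.0 under the label JunDKO. In TGEMs it measured 8.29 RPKM in the C57Bl/6EiJ vehicle library and 4.29 in the Balb/cJ one, and 62.5, 26.6 and 22.4 after KLA. Ordered by group mean, Atf3KO (55.2 RPKM) came first, then KLA-treated TGEMs (37.2), Scramble (35.9), JunKO (33.1), JunDKO (25.7) and vehicle TGEMs (6.29). The ranges of neighbours in this order overlapped down to JunDKO, and that of vehicle TGEMs overlapped none. The low level rests on few reads, 24 in the Balb/cJ vehicle library. Myc was the only MYC paralog with appreciable reads: Mycn and Mycl were at or below 0.479 RPKM in every library and at 0 in most.

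**Figure D1:**
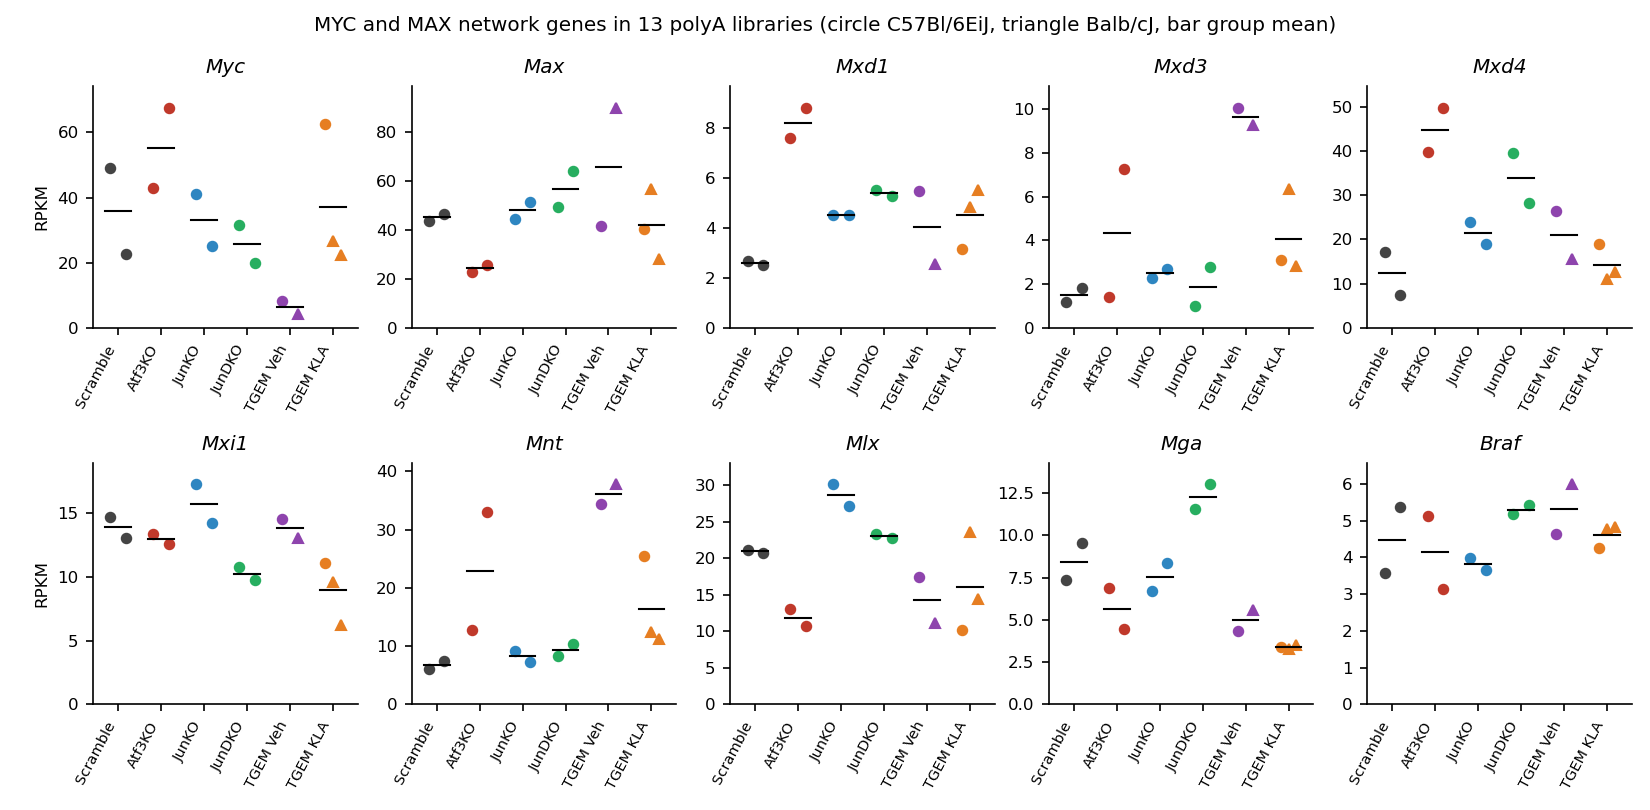
RPKM of each of the 10 genes (y axes differ) by group, with 1 point a library, circles for C57Bl/6EiJ, triangles for Balb/cJ and a bar at the group mean. Myc was 4.29 and 8.29 RPKM in vehicle TGEMs and 20.0 to 67.4 in all other libraries. Max, Mlx and Mga were lower, and Mxd1, Mxd4 and Mnt higher, in both Atf3KO libraries than in both Scramble libraries. The libraries of these groups did not overlap for 70.8% of all genes tested.

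Max (chromosome 12, 76937269 to 76962248, minus strand) encodes the partner that MYC, MXD proteins, MXI1, MNT and MGA share. It was abundant everywhere, at 22.8 to 64.0 RPKM in iBMDMs and 28.2 to 89.6 in TGEMs. Over all iBMDM groups together, Mxd4 (28.1 ± 14.03 RPKM, SD over 8 iBMDM libraries), Mxi1 (13.2 ± 2.33) and Mnt (11.8 ± 8.84) were the higher of the repressor partners and Mxd1 (5.19 ± 2.19) and Mxd3 (2.56 ± 2.02) the lower. The order varied with the group: in Scramble the mean of Mxi1 (13.9 RPKM) was above that of Mxd4 (12.4), with overlapping ranges, and in each knockout Mxd4 was first. Mxd3 rests on as few as 2 reads a library in iBMDMs. Over the TGEM libraries of both treatments Mnt was first (24.2 ± 12.2, n = 5), then Mxd4 (16.95 ± 6.13), Mxi1 (10.9 ± 3.23), Mxd3 (6.31 ± 3.36) and Mxd1 (4.33 ± 1.38), although neighbouring ranges overlapped; Mxd3 was above Mxd1 with vehicle (9.66 and 4.04 RPKM) and below it after KLA (4.08 and 4.52). Mlx measured 10.8 to 30.1 RPKM in iBMDMs and 10.2 to 23.6 in TGEMs, and Mga 4.45 to 13.01 and 3.301 to 5.59.

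Summed over Mxd1, Mxd3, Mxd4, Mxi1 and Mnt, RNA of the repressor partners exceeded Myc RNA 11.0-fold and 18.3-fold in the C57Bl/6EiJ and Balb/cJ vehicle TGEM libraries. After KLA that ratio was 0.99 to 1.71, and in the 8 iBMDM libraries 0.86 to 2.82. The groups of vehicle TGEMs and of all other libraries did not overlap in this ratio. The ratio of Max to Myc was 5.04 and 20.9 in vehicle TGEMs, 0.65 to 2.13 after KLA and 0.38 to 3.20 in iBMDMs. Both ratios are of RNA per exon length and say nothing of protein.

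**Figure D2:**
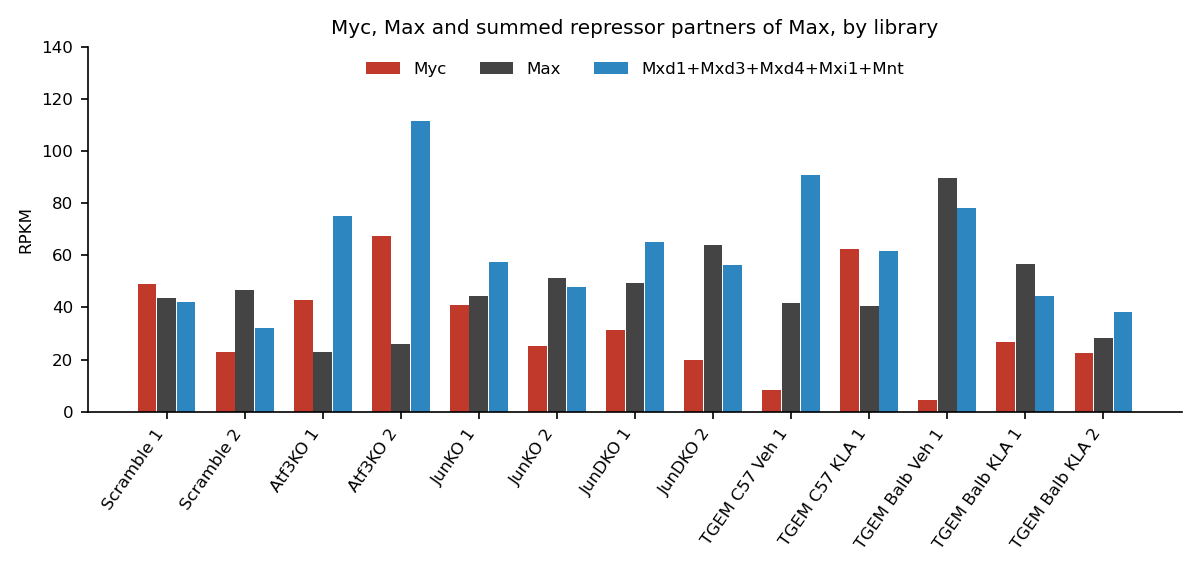
RPKM (y axis) of Myc, of Max and of the sum of 5 repressor partners in each of the 13 libraries. The repressor sum was 78.3 and 91.0 RPKM in the vehicle TGEM libraries, beside 4.29 and 8.29 for Myc; in the KLA libraries it was 38.3 to 61.7, beside 22.4 to 62.5.

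The effect of KLA on the network was examined first, within TGEMs. After 1 h Myc rose, at 37.2 ± 22.0 RPKM in KLA libraries (SD, n = 3) against 6.29 ± 2.83 in vehicle libraries (n = 2), a ratio of means of 5.91. The log2 fold change on the log2(RPKM + 1) scale, with strain in the model, was 2.48 ± 0.26 (SE; limma-trend adjusted p = 0.00407), and every KLA library exceeded both vehicle libraries. Myc was 1 of 10 members to pass an adjusted p under 0.05, where 1.53% of the 10357 genes tested did (1.29% higher). With the libraries of a shared label date only, without the second Balb/cJ KLA library, the change of Myc was 2.58 (adjusted p = 0.00467). The call was lost without strain in the model (2.30, adjusted p = 0.179) and when either vehicle library or the C57Bl/6EiJ KLA library was left out (2.27 to 2.77, adjusted p = 0.0513 to 0.122).

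No other member passed after KLA. Mnt, the repressor that is thought to hold MYC sites in resting cells, measured 34.4 and 37.8 RPKM with vehicle and 25.4, 12.5 and 11.2 with KLA, so the libraries did not overlap, as for 23.7% of all genes tested, but its log2 fold change of -1.09 ± 0.32 did not pass (limma-trend adjusted p = 0.207). Mxd3, a repressor linked to S phase, measured 10.1 and 9.26 RPKM with vehicle and 3.10, 6.33 and 2.83 with KLA (-1.16 ± 0.33, adjusted p = 0.197). Max was 41.8 and 89.6 RPKM with vehicle and 40.5, 56.8 and 28.2 with KLA, with an interval of the log2 fold change from -1.60 to 0.26. The median of all genes tested lay at -0.15.

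Genes around the network changed unevenly in that hour. Pim1, a kinase that stabilises and cooperates with MYC, measured 61.3 and 37.4 RPKM with vehicle and 357, 274 and 245 with KLA, a log2 fold change of 2.66 (limma-trend adjusted p = 0.00297); it was the 1 of 20 tested genes for cofactors and turnover of MYC that passed. Of 31 tested MYC target genes 0 rose and 0 fell, with a median log2 fold change of 0.02. Of 5 tested genes known to be repressed by MYC, 2 rose: Cdkn1a, the inhibitor p21 of cyclin-dependent kinases (2.39), and Gadd45b, a stress sensor (1.89). Of 11 tested genes of ERK output 4 rose, with the largest changes in Egr1 (5.76), Dusp5 (3.92) and Phlda1 (3.34), an early transcription factor, an ERK phosphatase and an early response gene.

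Strain was compared in the same model. None of the 10 members passed between Balb/cJ and C57Bl/6EiJ TGEMs, where 2.31% of genes did (limma-trend; 2213 genes had an unadjusted p under 0.05, Myc and Mxd4 among the members). Of all genes passing 37.2% were higher in Balb/cJ, against 51.1% with quantile normalization and 48.6% with the GC correction. Myc was lower in Balb/cJ by a log2 fold change of -1.10 ± 0.26 that did not pass (adjusted p = 0.0782) but passed with a filter at a mean of 5 RPKM (0.0401) and with limma-voom on the recovered reads (0.0225). Strain goes with label date, and Balb/cJ reads were aligned to a genome of that strain, so these cannot be told apart. The response of Myc to KLA was 2.77 in C57Bl/6EiJ and 2.27 in Balb/cJ TGEMs on the log2 scale, and the difference did not pass (limma-trend interaction, adjusted p = 0.848). In that test 0 of 10357 genes passed, 835 had an unadjusted p under 0.05, and 1 residual degree of freedom was left. Mxd1 had the lowest p of the members (-0.64 in C57Bl/6EiJ and 0.79 in Balb/cJ; adjusted p = 0.589).

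**Figure D3:**
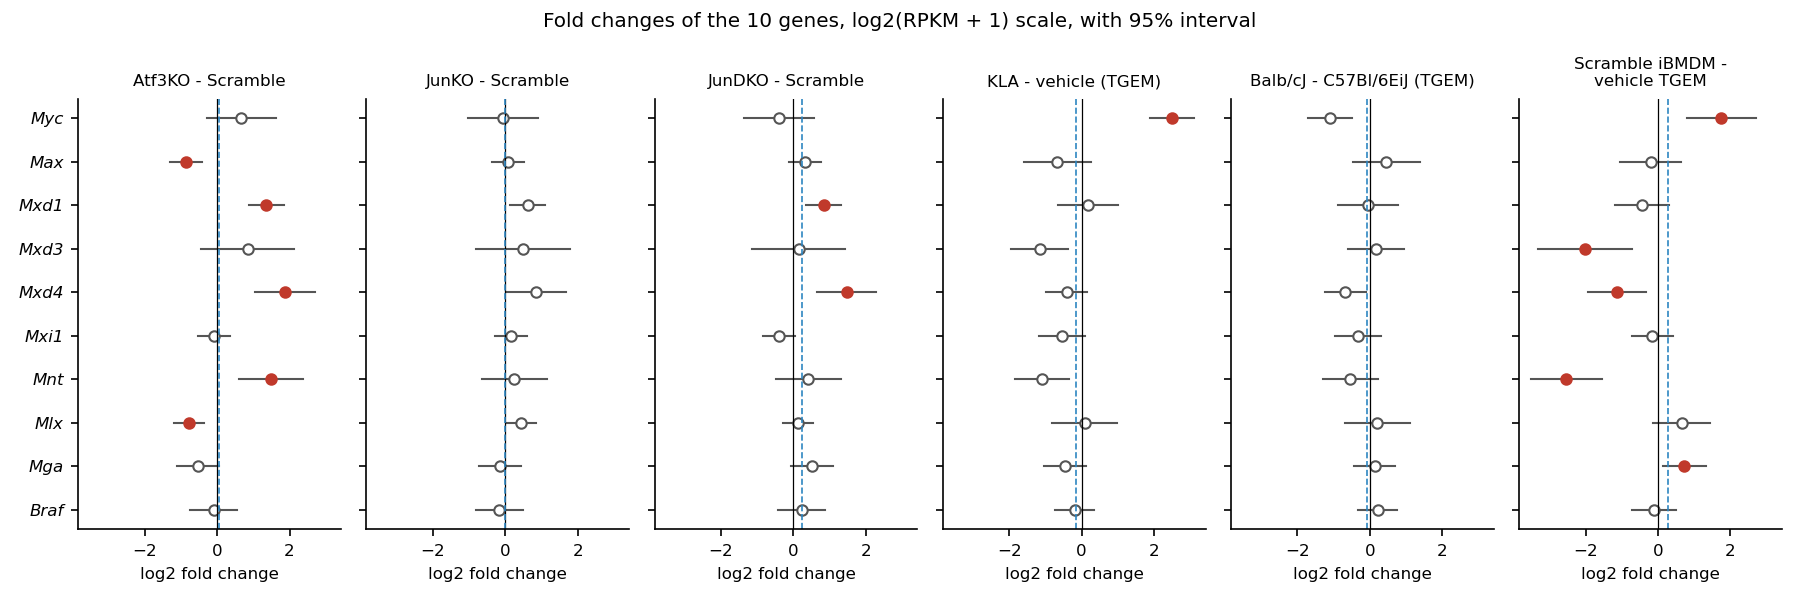
Log2 fold change (x axis, log2(RPKM + 1) scale) of each gene in 6 comparisons, with 95% intervals; filled points have a limma-trend adjusted p under 0.05 and the dashed line is the median of all genes tested. Filled are 5 members for Atf3KO, 0 for JunKO, 2 for JunDKO, Myc alone for KLA (2.48), 0 for strain and 5 for Scramble iBMDMs against vehicle TGEMs.

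Scramble iBMDMs were then compared with vehicle TGEMs, to see the level of both oncogenes in the line transformed with them. Cell kind, culture and label date go together here and cannot be told apart, and reads of Xist, 863 to 3921 in vehicle TGEMs and 0 to 1 in Scramble, differed with them. Myc was higher in iBMDMs, at 35.9 ± 18.6 RPKM against 6.29 ± 2.83 (SD, n = 2 each). The ratio of means, 5.70, pools vehicle libraries of both strains. With strain in the model, for C57Bl/6EiJ cells, Myc had a log2 fold change of 1.75 ± 0.43 (limma-trend adjusted p = 0.00723). It no longer passed without the first Scramble library (1.21, adjusted p = 0.0523) or the C57Bl/6EiJ vehicle library (1.38, adjusted p = 0.185). Of the members 5 of 10 passed, 2 higher and 3 lower, where 46.3% of the 10929 genes tested passed, 30.2% higher and 16.1% lower. Of all genes passing 65.3% were higher, against 50.0% at equal library medians, 52.1% with quantile normalization and 51.5% with the GC correction.

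Mnt was lower in iBMDMs, at 6.11 and 7.40 RPKM in Scramble against 34.4 and 37.8 in vehicle TGEMs (-2.53 ± 0.44, limma-trend adjusted p = 0.000987), and passed in all 16 alternatives. Mxd3 was lower too, at 1.20 and 1.81 RPKM against 10.1 and 9.26 (-2.01 ± 0.59, adjusted p = 0.0168), a call lost without the first Scramble library or the C57Bl/6EiJ vehicle library. Mxd4 at -1.12 ± 0.36 (limma-trend adjusted p = 0.0272) and Mga at 0.73 ± 0.27 (adjusted p = 0.0458) passed less firmly. Mxd4 measured 17.3 and 7.48 RPKM in Scramble against 26.5 and 15.7 in vehicle TGEMs, so its libraries overlapped. After a correction for the GC content of the genes, with which the fold changes of all genes were related (Spearman's rho of -0.41 across genes), Mxd4 was at -0.38 (adjusted p = 0.306) and Mga at -0.09 (adjusted p = 0.740). Mlx, Max, Mxd1 and Mxi1 did not pass. With a 2-fold change in the model and 16 RPKM also required 3 members passed, Myc, Mxd4 and Mnt, where 20.7% of genes did. For Mxd4 the ratio of means was 0.59, short of 2-fold.

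Braf was not higher in the line described as transformed with its mutant. It measured 3.58 and 5.36 RPKM in Scramble and 4.63 and 5.98 in vehicle TGEMs, and 3.15 to 5.43 over all 8 iBMDM libraries against 4.24 to 5.98 over all 5 TGEM libraries. The log2 fold change was -0.11 ± 0.28, with an interval from -0.72 to 0.50 (limma-trend adjusted p = 0.773), and -0.89 after the GC correction (adjusted p = 0.00878). Each iBMDM value rests on 61 to 972 reads. Reads from a transgene enter this row only if they align to the mouse gene.

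Of all genes tested 30.2% were higher in iBMDMs and 16.1% lower. Downstream of RAF, genes of ERK output were higher for 6 of 10 tested and lower for 1. The largest were Ccnd1, cyclin D1 (4.98), Dusp6, a phosphatase of ERK (3.56), and Spred1, an inhibitor of RAS signalling (2.46), while Egr1 was lower (-1.95). Of the 11 other genes tested from RAS to ERK 2 were higher, Rap1b and Map2k1, and 3 lower, Ksr1, Mapk3 and Map2k2, against 1 and 5 with the GC correction. Their median was 0.064, beside 0.28 for all genes tested.

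MYC target genes were mostly higher in Scramble iBMDMs than in vehicle TGEMs. Of 34 targets 31 were higher and 0 lower, with a median log2 fold change of 2.18. The largest were Npm1, a nucleolar chaperone of ribosome assembly (4.23), Hspd1, the mitochondrial chaperonin (4.07), and Dkc1, the pseudouridine synthase of ribosomal RNA (3.79). Npm1 measured 347 and 420 RPKM in Scramble against 20.4 and 18.1 in vehicle TGEMs, and Dkc1 49.5 and 55.8 against 3.15 and 3.37, so that the libraries of either kind did not overlap, as for 67.2% of all genes tested. The count was 25 to 32 over the alternatives, with 31 at equal library medians. Proliferation genes were higher for 15 of 15, led by Mki67 (3.94), Top2a (3.64) and Bub1 (3.08), so expression of cell cycle genes moved with that of MYC targets, and its part in the latter was not tested.

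Genes for cofactors and turnover of MYC were higher in iBMDMs for 10 of 20 and lower for 3. Of all genes tested 30.2% were higher and 16.1% lower. At equal library medians 7 of the 20 were higher and 3 lower. Aurka, the kinase that protects MYC proteins from turnover (2.34), Ruvbl2, an ATPase of chromatin complexes that bind MYC (2.19), and Sin3a, the scaffold by which MXD proteins repress (1.84), had the largest increases. Pim1 (-2.85), Fbxw7, the ubiquitin ligase that marks MYC for decay (-1.09), and Kat5, an acetyltransferase (-0.72), were lower. Genes known to be repressed by MYC went both ways, with Cebpa (-4.36), Gadd45a (-3.90) and Gadd45b (-3.24) lower and Cdkn1a higher (2.29). Of the other E-box proteins tested, Usf2 (-2.97) and Mlxip (-0.97) were lower. The summed levels of mesothelial, fibroblast and B cell markers given above differed in the same comparison, and their part in any of these differences was not tested; in bulk RNA, fewer cells of a type and less RNA per cell cannot be told apart.

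**Figure D4:**
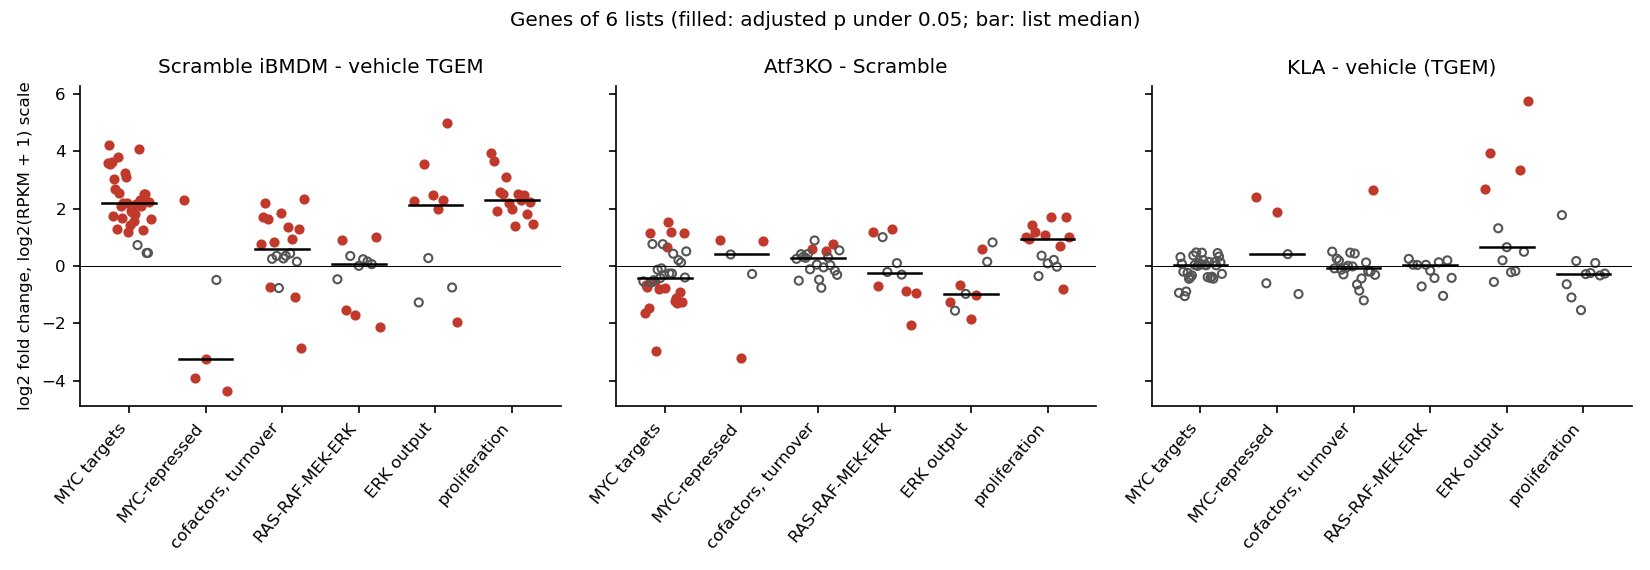
Log2 fold change (y axis, log2(RPKM + 1) scale) of the genes of 6 lists in 3 comparisons, 1 point a gene, filled where the limma-trend adjusted p was under 0.05, with a bar at the list median. MYC targets had a median of 2.18 for Scramble iBMDMs against vehicle TGEMs, -0.41 for Atf3KO against Scramble and 0.02 for KLA against vehicle.

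Genes whose pattern was most like that of Myc were sought among genes with a mean of at least 16 RPKM, by Pearson's r of log2(RPKM + 1). Over the 8 iBMDM libraries (4199 genes), these were Cyb5r3 (r = 0.969), Wars (0.966), Mvp (0.965), Uba1 (0.961) and Flii (0.957). Over all 13 libraries (3964 genes) they were Slc2a6 (0.882), Mir5114 (0.856), Tor1a (0.830), Cdkn1a (0.820) and Eif6 (0.820). Reads in the row of Mir5114, a microRNA, may come from a longer transcript over it. Of the members, Mga (-0.875), Max (-0.764) and Braf (-0.681) had the lowest r with Myc in the iBMDM libraries, and Mnt (0.583) and Mxd4 (0.513) the highest. Over all 13 libraries the lowest were Braf (-0.641) and Max (-0.618) and the highest Mxd4 (0.303) and Mxd1 (0.293), while Mnt was at -0.337 and Mga at -0.038. The libraries share a line or a strain and their groups, and these values are a description.

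Each knockout was compared with the same Scramble libraries, so the 3 comparisons share their controls and their values are given side by side. Max, in the order Atf3KO, JunKO and JunDKO, differed from Scramble by log2 fold changes of -0.86 ± 0.19, 0.08 ± 0.19 and 0.31 ± 0.19. Mxd1 differed by 1.36 ± 0.21, 0.62 ± 0.21 and 0.84 ± 0.21. Mxd4 differed by 1.87 ± 0.36, 0.84 ± 0.36 and 1.47 ± 0.36. Each SE is from the spread shared by all 4 groups, and a difference between knockouts was not tested.

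In the libraries labelled Atf3KO 5 of 10 members passed, against 41.2% of the 10691 genes tested (20.7% higher and 20.6% lower), and the libraries of the 2 groups did not overlap for 70.8% of all genes. Of all genes passing 50.1% were higher, and 38.8% at equal library medians. Mxd4, a repressor partner found in quiescent and differentiated cells, rose from 17.3 and 7.48 RPKM in Scramble to 39.8 and 49.7 (limma-trend adjusted p = 0.00551). Mxd1, the repressor first named MAD, rose from 2.67 and 2.51 to 7.63 and 8.82 RPKM (adjusted p = 0.00248). Both still passed within the label date shared with Scramble, without the second Atf3KO library (1.71, adjusted p = 0.0422, and 1.26, adjusted p = 0.0149), and after the GC correction (1.03, adjusted p = 0.0165, and 1.33, adjusted p = 0.00123).

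Mnt rose from 6.11 and 7.40 to 12.8 and 33.1 RPKM (1.49 ± 0.39, limma-trend adjusted p = 0.0176), with most of the change in the second Atf3KO library. It did not pass without this library (0.83, adjusted p = 0.0565), without the first or second Scramble library (adjusted p = 0.0879 and 0.0736) and with the GC correction (0.69, adjusted p = 0.0790). The fold changes of all genes rose with GC content here (Spearman's rho of 0.50 across genes), and the exons of Mxd4 and Mnt have 59.97% and 59.4% GC. Max fell from 43.6 and 46.5 to 22.8 and 25.9 RPKM (limma-trend adjusted p = 0.00994), and Mlx from 21.2 and 20.8 to 13.003 and 10.8 (-0.77 ± 0.18, adjusted p = 0.0111). Both calls were lost without the second Scramble library (limma-trend adjusted p = 0.0643 and 0.0576), and that of Mlx also with only Scramble and Atf3KO fitted (adjusted p = 0.0531).

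Myc itself did not pass in Atf3KO, at 42.9 and 67.4 RPKM against 49.0 and 22.7, and its interval ran from -0.29 to 1.63 (limma-trend adjusted p = 0.223). Its log2 fold change was 1.21 without the first Scramble library (adjusted p = 0.0761) and 0.13 without the second (adjusted p = 0.853). Nor did Mxd3, Mxi1, Mga or Braf. Mxd3 was 1.41 RPKM in the first Atf3KO library and 7.28 in the second, with 1.20 and 1.81 in Scramble. With a 2-fold change and 16 RPKM also required, 2 members passed, Mxd4 and Mnt, where 12.5% of genes did.

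MYC targets went both ways in Atf3KO, with 5 of 34 higher, 13 lower and a median of -0.41. Of all genes tested 20.7% were higher and 20.6% lower, with a median of 0.05. With the GC correction 4 targets were higher, 13 lower and their median was -0.20. At equal library medians these were 4, 16 and -0.58. Wdr12 (-2.95), Npm1 (-1.65) and Fbl (-1.46), of ribosome assembly, fell most, and Shmt2 (1.53), of the serine pathway, Apex1 (1.17), of base excision repair, and Cdk4 (1.16) rose most. Npm1 measured 347 and 420 RPKM in Scramble and 143 and 102 in Atf3KO. Its libraries did not overlap, as for 70.8% of all genes tested. The number that fell was 4 without the second and 7 without the first Scramble library, and 6 where a 2-fold change and 16 RPKM were also required. Proliferation genes rose for 9 of 15, where 20.7% of all genes did. The largest rises were in Plk1 (1.70), Rrm2 (1.69) and Ccnb1 (1.43), and 1, Pcna (-0.80), fell.

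All 3 other E-box proteins tested rose in Atf3KO, where 20.7% of all genes did. These were Usf2 (1.97), Usf1 (1.33) and Mlxip (0.87), which encodes a MONDO partner of MLX. Usf2 measured 17.1 and 37.4 RPKM against 7.10 and 4.61 in Scramble. Of 10 tested genes from RAS to ERK 4 fell and 2 rose, where 20.6% of all genes fell and 20.7% rose. With the GC correction 3 of the 10 fell and 3 rose. Rap1a (-2.04), Rap1b (-0.95) and Nras (-0.86) fell most and Mapk3 (1.296) and Araf (1.18) rose. The 2 tested MONDO targets, Txnip and Arrdc4, did not pass.

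In JunKO 0 of 10 members passed, where 0.281% of genes did (limma-trend), and 0 passed in any of the 18 alternatives; the unadjusted p was under 0.05 for 3 members and 842 genes. These were Mxd1 at 4.54 and 4.51 RPKM against 2.67 and 2.51 in Scramble, Mxd4 at 24.04 and 18.9 against 17.3 and 7.48, and Mlx at 30.1 and 27.2 against 21.2 and 20.8. Their adjusted p were 0.455, 0.617 and 0.598, and in each case both JunKO libraries lay above both Scramble libraries, as the libraries did not overlap for 37.2% of all genes. The interval for Myc ran from -1.01 to 0.90. Of 34 MYC targets 0 rose and 0 fell.

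In JunDKO Mxd4 and Mxd1 passed, 2 of 10 members, where 11.7% of genes did (6.93% higher). Of all genes passing 59.0% were higher, against 31.4% at equal library medians, 41.3% with quantile normalization and 44.9% with the GC correction. Mxd4 measured 39.6 and 28.2 RPKM (1.47 ± 0.36, limma-trend adjusted p = 0.0348) and Mxd1 5.53 and 5.29 (0.84 ± 0.21, adjusted p = 0.0380), above both Scramble libraries, as the libraries of the groups did not overlap for 61.6% of all genes. These calls were lost in 6 and 13 of 18 alternatives and, for both genes, at equal library medians, where the median of all genes moved from 0.23 to -0.02. With a 2-fold change and 16 RPKM also required Mxd4 alone passed, where 4.97% of genes did. Myc measured 31.5 and 20.0 RPKM, with an interval from -1.36 to 0.56. Mga, at 11.6 and 13.01 RPKM against 7.34 and 9.55, was highest in this group and did not pass (adjusted p = 0.240).

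Of 34 MYC targets 1 rose in JunDKO, Shmt2 (1.83), and 3 fell, Ccnd2 (-2.37), Tfrc (-1.46) and Ldha (-1.23), where 6.93% of all genes rose and 4.82% fell. At equal library medians 6 fell and with the GC correction 7, and 1 rose in either. Proliferation genes rose for 9 of 15, led by Plk1 (2.51), Ccnb1 (1.85) and Birc5 (1.82). Of the genes for cofactors and turnover of MYC, Aurka (1.31), Kat5 (1.14) and Usp28, a deubiquitinase of MYC (0.85), rose. Among genes known to be repressed by MYC, Cebpa rose (1.87) while Cdkn1a (-1.26) and Ndrg1 (-1.19) fell. Arrdc4, a relative of Txnip that MLX and its MONDO partners drive, fell from 12.7 to 2.16 RPKM on average (-2.16 ± 0.37, limma-trend adjusted p = 0.00812). Txnip, the other MONDO target, did not pass (-0.33, adjusted p = 0.199), but both fell at equal library medians and with the GC correction. The JunDKO libraries held reads of 11925 and 12533 gene models and differed most in depth, at 1553296 to 18444434 reads.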

How the data were processed

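The authors aligned polyA RNA-seq reads with STAR (Balb/cJ reads to a genome of that strain, others to mm10) and, per the file headers, counted exons with HOMER. Per the deposited table the values are RPKM of 24453 gene models in 13 of 17 samples, and its length column holds exonic bases; versions, a strand option and mapped totals are not given in the sources used here. GRO-seq (4 samples) was not analysed here. Low values are whole multiples of 1 read (100% of values up to 50 reads, tolerance 0.05), which gave reads and depth.

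log2(RPKM + 1) of genes with a mean of at least 1 RPKM was fitted with limma-trend (limma 3.58.1, R 4.3.3): 4 groups over 8 iBMDM libraries (4 residual degrees of freedom), treatment and strain over 5 TGEM libraries (2), and all 13 libraries with strain (6). Two-sided p values were adjusted by Benjamini-Hochberg over all genes tested; a gene passed under 0.05. Fold changes on this scale understate those of low genes. Named genes were all members and, per list and comparison, up to 3 passing genes a direction with the largest change, the targeted Atf3, Jun and Jund, and the 5 genes most like Myc by r; beyond these Mycn, Mycl, Txnip, Arrdc4, Lyz2, Cd68 and Xist were added after they were seen. Some genes of the lists are not reported here and were left out of their counts. The methods speak of replicate experiments for expression in the knockouts but name no separate cultures, so p values measure the spread between these libraries, which may be technical. Alternatives were other pseudocounts, filters, scalings, weights, fits and left-out libraries, with a GC correction (spline of 5 degrees of freedom; 98.8% of models had GC) added after seeing the data. The test was checked on simulated data. The members, lists and tests were chosen with earlier results of these data known. Promoters are from RefSeq GRCm38.p6. Software was Python 3.11.15 with numpy 2.4.6 and pandas 2.3.3.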

Additional observations from a re-analysis of the deposited data

How the results depend on the processing

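Over 1015 values of single members under alternatives, 901 kept their direction and side of the threshold, 55 no longer passed, 10 newly passed and 49 reversed. The number of members passing for Atf3KO, 5, was 2 with a 2-fold change and 16 RPKM also required and 2 to 7 with 1 library left out. For JunDKO, 2, it was 1 with a pseudocount of 5 RPKM, a filter at 5 RPKM, quantile normalization, the 2-fold and 16 RPKM limits or limma-voom, 0 with no filter, equal library medians or only Scramble and JunDKO fitted, and 0 to 1 with 1 library left out. For KLA, 1, it was 0 with no covariate and 0 to 1 with 1 library left out; for strain, 0, it was 1 with a filter at 5 RPKM and with limma-voom. For iBMDMs against TGEMs, 5, it was 3 with no filter, the 2-fold and 16 RPKM limits, array weights or only those 4 libraries fitted, and 2 to 4 with 1 library left out. The labels link same-numbered iBMDM libraries by a number, and whether these were prepared together is not given in the sources used here. The difference between the first and second library of a group was correlated between groups. Its r was -0.207 for Scramble and Atf3KO, -0.215 and -0.12 for Atf3KO with JunKO and JunDKO, and 0.185 to 0.225 for the other pairs. With a replicate block 5 (Atf3KO), 0 (JunKO) and 1 (JunDKO) members passed; with the Atf3KO numbers crossed 7 passed, Myc and Mga in addition, and without the Atf3KO libraries the block gave 0 (JunKO) and 2 (JunDKO), both chosen after seeing the data. The cause of these changes was not tested.

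Of the members that reversed, Mga in iBMDMs against TGEMs had passed as reported, and Mga and Mxd3 in Atf3KO and Mxd1, Mxi1 and Braf between cell kinds passed under some other alternative. With the GC correction Mxi1, Mga and Braf in Atf3KO were 0.16, 0.11 and 0.47, Mxd3 and Mlx in JunDKO -0.13 and -0.050, Braf after KLA 0.030, Mxd1, Mga and Braf between strains 0.047, -0.13 and -0.025, and Mga between cell kinds -0.091. At equal library medians Mxd3, Mlx and Braf in JunDKO were -0.037, -0.16 and -0.021 and Mxd1 between strains 0.015; with quantile normalization Mlx and Braf in JunDKO were -0.073 and -0.035 and Mxd1 between strains 0.058. With limma-voom Mxd1 and Mlx after KLA were -0.013 and -0.0088 and Mxd1 between strains 0.093; Mxi1 was 0.0071 with only Scramble and vehicle TGEMs fitted. With 1 library left out, Atf3KO values of Mxd3 ran from -0.047 to 1.73 and of Braf from -0.38 to 0.18; JunKO values of Myc from -0.59 to 0.48, Max from -0.023 to 0.19, Mga from -0.31 to 0.030 and Braf from -0.40 to 0.076; JunDKO values of Myc from -0.94 to 0.14, Mxd3 from -0.32 to 0.60 and Braf from -0.013 to 0.46. KLA values ran from -0.64 to 0.79 for Mxd1 and -0.72 to 0.68 for Mlx. Strain values ran from -0.016 to 1.08 for Max, -0.87 to 0.57 for Mxd1, -0.11 to 0.37 for Mxd3, -1.05 to 0.13 for Mnt and -0.60 to 0.80 for Mlx. Between cell kinds they ran from -0.99 to 0.11 for Max, -0.86 to 0.58 for Mxd1 and -0.34 to 0.13 for Braf. Over all genes, the number passing ran from 1339 to 5489 for Atf3KO (4409 as reported), 14 to 141 for JunKO (30), 409 to 2654 for JunDKO (1256), 28 to 431 for KLA (158), 32 to 793 for strain (239) and 2261 to 5546 between cell kinds (5055). Depth limits the low members, since Mxd3 rests on 2 to 148 reads a library and Myc in the Balb/cJ vehicle library on 24.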

Other observations

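Of 9 ERK output genes tested 5 passed in Atf3KO, 3 in JunDKO and 0 in JunKO. In Atf3KO 4 of 9 fell, where 20.6% of all genes did, the largest Spred1 (-1.83), Dusp4 (-1.25) and Spred2 (-1.003) by limma-trend log2 fold change, while Etv5 rose (0.58). In JunDKO 2 of 9 fell, Dusp4 (-1.88) and Dusp6 (-1.37), and 1 rose, Etv5 (0.93), where 4.82% of all genes fell and 6.93% rose. At equal library medians neither rise passed, with 0 of 9 higher in both comparisons, 5 lower in Atf3KO and 3 in JunDKO. Dusp6 measured 69.8 and 57.8 RPKM in Scramble, 36.2 and 43.1 in Atf3KO, 52.9 and 49.1 under the label JunKO and 23.5 and 24.5 under the label JunDKO, so that both JunDKO libraries were the lowest of the line. These comparisons share the Scramble libraries.

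Of 20 genes for cofactors and turnover of MYC, 3 rose in Atf3KO, Usp28 (0.75), Hcfc1 (0.59) and Ncor1 (0.51), and 0 fell, where 20.7% of all genes tested rose. The counts moved with the scaling: with library medians made equal 0 rose and 2 fell, and with the GC correction 2 rose and 3 fell. Of 5 genes known to be repressed by MYC, Cdkn1a (0.90) and Cebpa (0.86) rose and Gadd45b fell (-3.20), from a mean of 10.1 RPKM to 0.22; 1 rose and 1 fell at equal library medians and with the GC correction. In JunDKO Cdkn1a moved the other way, at 87.4 and 77.0 RPKM against 219 and 180 in Scramble and 372 and 368 in Atf3KO.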
